A study of Homo sapiens with 2 samples.

Results

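The FOX and SOX genes encode developmental transcription factors, and their regions of accessible chromatin were compared between 293T cells exposed to methylglyoxal (MGO) and control cells. The genes were every GENCODE 44 protein-coding gene whose symbol is SOX followed by a number, or FOX followed by 1 letter and a number. This gave 64 genes, 45 FOX and 19 SOX, of 20033 protein-coding genes. 293T is a human embryonic kidney line, and MGO is a reactive by-product of glycolysis that attaches to lysine and arginine side chains of proteins, histones among them. Treated cells were held for 12 h in medium containing MGO at 0.5 mM, and control cells were not. The labels describe the control as PBS in their treatment field and as plain medium in their protocol. ATAC-seq, which marks DNA that the Tn5 transposase can reach, was run on 50000 cells of each condition, and 1 control library and 1 MGO library were analysed. The names of the peaks in both lists carry the number 2, so the study may hold further libraries, which were not analysed here. With 1 library per condition there is no test between conditions, no p-value is given, and biological change, culture differences and library differences cannot be told apart.

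The values are the peaks that the authors called in each library. For each peak they deposited a fold enrichment, the ratio of reads over the local background, and a −log10 p, which grows with the evidence for reads above background. The authors called broad peaks, and neither value was adjusted here for peak width. The strongest peak below is the one with the highest deposited −log10 p, whatever its width. Only peaks reaching 2 in −log10 q were used, restricted to the autosomes, X and Y, which left 23458 in the control list and 15738 in the MGO list. Deposited peaks under that threshold are called weaker peaks. A TSS peak lies within 1000 bp of the start of any transcript of the gene, and other peaks lie farther away but within 50 kb of one. Because the MGO list was shorter, the main counts for the FOX and SOX genes are set beside the same counts over all protein-coding genes.

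Both families bind DNA and switch cell fates. SOX proteins bind with an HMG box, which bends DNA, and are sorted into classes by sequence: class B1 keeps stem cells and neural progenitors undifferentiated, class D and class E act in cartilage, class E also in testis and neural crest, and class F in endothelium and endoderm. FOX proteins bind with a forkhead domain, a winged helix. FOXA proteins are known as pioneer factors that engage closed chromatin, FOXO proteins act downstream of insulin and AKT, and FOXM1 drives genes of cell division. Many of these genes lie in CpG-rich chromatin and are used in few tissues, while others, such as FOXK and FOXO genes, are active in many cell types.

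The starts of 6 genes are shown, since the results turn on how these promoters differ in their peaks. Each is 300 bases, from 250 before to 50 after the RefSeq start (GRCh38.p14), written 5′ to 3′ along the gene, with CpG dinucleotides in capitals. FOXN4 and FOXF2 had a control TSS peak and no MGO TSS peak. SOX6 and FOXK2 had the strongest control TSS peaks, for FOXK2 at a start other than the one shown. SOX1, without a peak, and FOXP2, with peaks and nearly no CpG, were picked after their values were seen. The FOXP2 stretch is at an inner start, where the peaks were weak. Their −log10 p was 4.43 in control and 4.48 in MGO, and their −log10 q of 2.16 and 2.04 was just above the threshold. The strongest FOXP2 TSS peak, with a −log10 p of 13.9 in control, lay at another start.
FOXN4, chr12:109309235-109309534, minus strand: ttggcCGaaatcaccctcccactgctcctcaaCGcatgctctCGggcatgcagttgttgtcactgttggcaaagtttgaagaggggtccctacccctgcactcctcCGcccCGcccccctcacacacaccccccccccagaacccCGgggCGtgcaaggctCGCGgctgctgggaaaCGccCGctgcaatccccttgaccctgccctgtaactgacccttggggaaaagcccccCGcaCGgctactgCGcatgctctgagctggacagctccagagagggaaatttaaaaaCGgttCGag
FOXF2, chr6:1389326-1389625, plus strand: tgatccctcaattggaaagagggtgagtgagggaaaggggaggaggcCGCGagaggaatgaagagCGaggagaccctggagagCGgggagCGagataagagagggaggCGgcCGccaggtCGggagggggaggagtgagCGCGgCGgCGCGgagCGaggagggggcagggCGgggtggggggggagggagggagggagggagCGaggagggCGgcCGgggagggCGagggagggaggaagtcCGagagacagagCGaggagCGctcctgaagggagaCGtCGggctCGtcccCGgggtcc
SOX6, chr11:16738428-16738727, minus strand: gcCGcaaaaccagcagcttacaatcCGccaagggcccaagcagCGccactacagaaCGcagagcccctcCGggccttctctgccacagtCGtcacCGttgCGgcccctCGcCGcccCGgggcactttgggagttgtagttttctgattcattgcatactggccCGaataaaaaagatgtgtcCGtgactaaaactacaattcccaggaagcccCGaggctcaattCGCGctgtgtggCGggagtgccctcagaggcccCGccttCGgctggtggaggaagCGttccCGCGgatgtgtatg
FOXK2, chr17:82519482-82519781, plus strand: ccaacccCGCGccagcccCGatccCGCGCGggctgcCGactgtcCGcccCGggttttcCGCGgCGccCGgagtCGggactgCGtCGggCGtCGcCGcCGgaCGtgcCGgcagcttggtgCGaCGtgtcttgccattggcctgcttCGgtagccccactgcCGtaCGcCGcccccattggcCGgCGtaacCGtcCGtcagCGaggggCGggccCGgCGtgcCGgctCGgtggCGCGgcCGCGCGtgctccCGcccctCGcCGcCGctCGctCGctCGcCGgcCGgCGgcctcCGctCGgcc
SOX1, chr13:112066899-112067198, plus strand: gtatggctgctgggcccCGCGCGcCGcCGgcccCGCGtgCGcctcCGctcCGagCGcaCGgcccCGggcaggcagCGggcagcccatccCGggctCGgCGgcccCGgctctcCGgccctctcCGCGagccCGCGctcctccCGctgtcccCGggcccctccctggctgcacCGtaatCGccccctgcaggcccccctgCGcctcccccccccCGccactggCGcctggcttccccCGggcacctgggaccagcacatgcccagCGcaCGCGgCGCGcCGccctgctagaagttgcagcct
FOXP2, chr7:114414565-114414864, plus strand: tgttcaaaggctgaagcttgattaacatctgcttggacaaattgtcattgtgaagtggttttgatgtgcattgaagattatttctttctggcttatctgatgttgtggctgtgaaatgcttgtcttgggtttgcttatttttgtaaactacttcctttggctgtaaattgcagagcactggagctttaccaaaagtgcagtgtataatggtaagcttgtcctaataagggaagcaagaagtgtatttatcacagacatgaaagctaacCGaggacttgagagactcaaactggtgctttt

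The FOXN4 stretch holds 16 CpG and lay wholly in the control peak, while the weaker MGO peak of that gene covered none of it. The FOXF2 stretch holds 26 CpG, and all of its 300 bases lay in the control peak and 101 in a weaker MGO peak. The SOX6 stretch, with 22 CpG, lay wholly within a peak in both libraries. FOXK2 had 55 CpG, with 225 bases in the control peak and 300 in the MGO peak. SOX1 had 37 CpG and no base in any deposited peak of either list. FOXP2, with 1 CpG, lay wholly within a peak in both.

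Of the 64 genes, 41 had a TSS peak in control and 38 in MGO, where 63.3% and 57.8% of all protein-coding genes did. A TSS peak was present in both libraries at 37 genes (57.8%), in control only at 4 (FOXF2, FOXJ1, FOXL1 and FOXN4), in MGO only at 1 (SOX8) and in neither at 22 (34.4%). Over all protein-coding genes these shares were 56.4% in both, 6.92% in control only, 1.43% in MGO only and 35.2% in neither. So 4 of the 41 genes with a control TSS peak had none in MGO, where the background was 10.9%, and of the genes without a control TSS peak 1 had one in MGO, where the background was 3.89%. Both counts were close to the background. The split also followed the lengths of the lists: with the control list shortened to the number of MGO peaks, by −log10 p, 1 gene had a TSS peak in control only and 5 in MGO only.

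**Figure D1:**
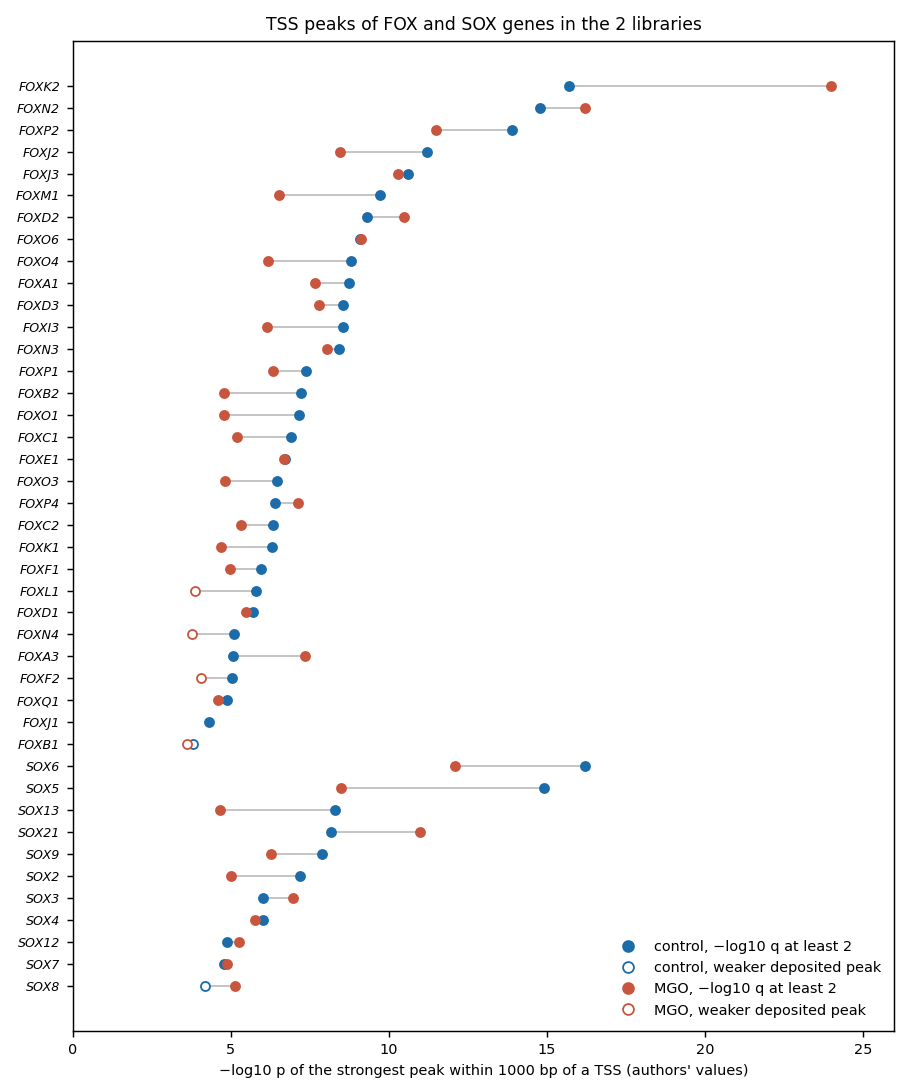
The −log10 p of the strongest TSS peak of FOX and SOX genes with a deposited TSS peak (1 gene is not shown), in the control library (blue) and the MGO library (red), with genes in rows. Filled points have a −log10 q of at least 2 and open points are weaker deposited peaks; FOXK2 reached 24.0 in MGO, and the genes with a filled point in 1 library only lie at the low end, between 4.31 and 5.79.

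The 4 genes with a control TSS peak only are tissue regulators of the FOX family, and their control peaks were weak. FOXF2, a factor of gut mesenchyme, had a wide peak of 2844 bp at chr6:1388108-1390951 over its first exon, with a fold enrichment of 2.32 and a −log10 p of 5.03 in control. In MGO a weaker peak at chr6:1389525-1391135 had a −log10 p of 4.07. The MGO peak covered only the downstream side of the control peak, from near the start of the gene into its body.

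FOXL1, a factor of the mesenchyme under the gut epithelium, had a control peak of 658 bp at chr16:86575826-86576483 with a fold enrichment of 3.26 and a −log10 p of 5.79. The weaker MGO peak there had a −log10 p of 3.88 and nearly the same extent. FOXN4, which specifies retinal and spinal interneurons, had a control peak of 936 bp at chr12:109309181-109310116 with a fold enrichment of 2.90 and a −log10 p of 5.12. Its weaker MGO peak, with a −log10 p of 3.78, lay upstream of the start and did not reach it. FOXJ1, the regulator of motile cilia, had the smallest control peak of these genes, 292 bp at chr17:76141246-76141537, with a fold enrichment of 2.76 and a −log10 p of 4.31, and no deposited MGO peak. Its −log10 q of 2.05 was just above the threshold. Of the 4 genes, 3 thus had a weaker MGO peak, and over all protein-coding genes with a control TSS peak only, 803 of 1386 did (57.9%).

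SOX8, a class E factor of testis and glia, was the single gene with a TSS peak in MGO only. Its MGO peak spanned 852 bp at chr16:980870-981721, just upstream of the gene, with a fold enrichment of 2.67 and a −log10 p of 5.13. The control list held a weaker peak inside it, with a fold enrichment of 2.75, a −log10 p of 4.19 and a −log10 q of 1.96. The fold enrichments of the 2 libraries at SOX8 were thus about level, and the control peak missed the threshold narrowly. Over all protein-coding genes with an MGO TSS peak only, 212 of 286 (74.1%) had such a weaker control peak. When all deposited peaks of the other library were counted, FOXJ1 was the single gene of the 64 with a TSS peak in 1 library.

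**Figure D2:**
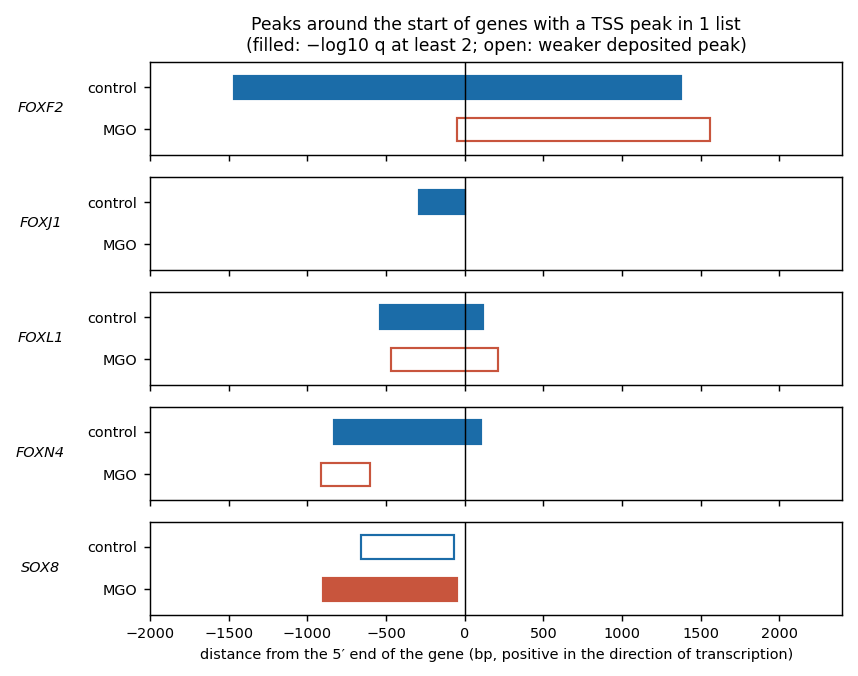
Extent of control (blue) and MGO (red) TSS peaks at the 5 genes with a TSS peak in 1 list, as distance in bp from the 5′ end of the gene, positive in the direction of transcription. Filled bars passed the −log10 q threshold of 2 and open bars are weaker deposited peaks; the MGO list has no peak at FOXJ1, and at FOXN4 the weaker MGO peak ends before the start of the gene.

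Single TSS peaks also differed at 2 genes that had a TSS peak in both libraries. FOXP1, which acts in lymphocytes, heart and brain and has 71 annotated transcript starts, had 5 control TSS peaks, of which 3 overlapped an MGO peak. The peak at chr3:71304853-71306005, with a −log10 p of 5.58, met only a weaker MGO peak, with a −log10 p of 3.91. The peak at chr3:71542488-71542859, 372 bp in an intron and 698 bp from a start, had a fold enrichment of 3.68 and a −log10 p of 6.84 in control and no deposited MGO peak. This was the strongest control TSS peak of the 64 genes without an MGO peak, and its central 300 bases are shown on the plus strand (GRCh38), with 8 CpG in capitals.
FOXP1, chr3:71542524-71542823: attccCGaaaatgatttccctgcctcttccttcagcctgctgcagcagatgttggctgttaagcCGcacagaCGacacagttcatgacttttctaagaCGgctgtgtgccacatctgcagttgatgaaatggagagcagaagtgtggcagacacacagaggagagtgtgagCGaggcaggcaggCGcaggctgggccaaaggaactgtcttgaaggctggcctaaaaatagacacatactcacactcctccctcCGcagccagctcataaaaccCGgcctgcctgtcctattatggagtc

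FOXP2, the factor tied to speech development, had 3 control TSS peaks. The peak at chr7:114630264-114630733 had a −log10 p of 5.23 in control and overlapped a weaker MGO peak with a −log10 p of 4.15.

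Counted by peak, 44 of the 51 control TSS peaks of FOX and SOX genes overlapped an MGO peak, 86.3% with a 95% Wilson interval of 74.3 to 93.2%. The share over all protein-coding genes was 85.6%. The difference from the other protein-coding genes was 0.680 points, with a 95% Newcombe interval of −11.3 to 7.62, so a difference was not detectable with this number of peaks. The difference moved to 6.81 points with all deposited peaks and to 7.16 points with the peaks of other genes weighted to the same −log10 p. These intervals cover counting error only and treat peaks as independent. For the SOX genes, 12 of 12 control TSS peaks overlapped an MGO peak (interval 75.8 to 100%), and for the FOX genes 32 of 39 (82.1%, 67.3 to 91.0%).

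Peak strength went with this overlap. In the weakest of 5 equal groups of control TSS peaks by −log10 p, up to 5.97, 9 of 15 FOX and SOX peaks overlapped an MGO peak (60.0%), and 51.8% of those of other genes. In the next group 14 of 15 did (93.3% against 82.3%), and in the 3 stronger groups 14 of 14, 3 of 3 and 4 of 4 did, where 94.8%, 99.1% and 99.9% of the peaks of other genes did. Of the FOX and SOX peaks 29.4% lay in the weakest group and 7.84% in the strongest, so that weak peaks were more frequent among them than an equal split would give.

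The SOX genes are taken first. In class B1, SOX2, the factor of pluripotent and neural stem cells, had a TSS peak with a −log10 p of 7.19 in control and 5.02 in MGO, and fold enrichments of 3.07 and 2.81. SOX3, its X-linked relative, had a −log10 p of 6.03 in control and 6.96 in MGO. The SOX3 peak was 679 bp wide in control and 276 bp in MGO. SOX1, the third neural member of the class, had no TSS peak in either list. In class B2, SOX21, a neural repressor, had a −log10 p of 8.18 in control and 11.0 in MGO, with fold enrichments of 2.49 and 2.83. SOX14 had no TSS peak.

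In class C, which acts in neural and mesenchymal progenitors, SOX4 had a −log10 p of 6.01 in control and 5.78 in MGO, and SOX12 4.89 and 5.25. Both peaks were at least as wide in MGO as in control. SOX11 had no TSS peak in either list. The nearest peak to it, chr2:5696351-5697176, lay 3967 bp from its start, in the span of the gene and within 1000 bp of the start of another gene. It had a −log10 p of 5.16 in MGO, and 3.82 as a weaker control peak.

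Class D held the strongest SOX TSS peaks in control, and all 3 genes had TSS peaks in both libraries. SOX6, a cartilage and red cell factor, had a peak at chr11:16738003-16739296 with a −log10 p of 16.2 in control and 12.1 in MGO, and fold enrichments of 4.74 and 4.02. SOX5, its close relative, had a peak at an inner start, chr12:23949563-23950930, with a −log10 p of 14.9 in control and 8.48 in MGO, and fold enrichments of 4.35 and 3.81. At the outer start of SOX5 the −log10 p was 9.68 in control and 8.03 in MGO. SOX13 had a −log10 p of 8.30 in control and 4.66 in MGO, and fold enrichments of 3.32 and 2.52. Among all genes with a TSS peak it stood at percentile 39.7 in control and 3.11 in MGO, the largest downward move in rank among the 37 genes with a TSS peak in both.

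In class E, SOX9, the factor of cartilage and testis, had a −log10 p of 7.89 in control and 6.28 in MGO, and SOX10, the factor of neural crest and glia, had no TSS peak. Near SOX8, at chr16:1025277-1025636, 43191 bp from its start and between genes, lay a narrow peak with a −log10 p of 11.1 and a fold enrichment of 4.48 in control. In MGO its fold enrichment was 5.66 and its −log10 p 27.4, the highest −log10 p of any peak assigned to the 64 genes. In class F, SOX7 had a −log10 p of 4.80 in control and 4.90 in MGO, and SOX17 and SOX18 had no TSS peak. SOX15 (class G) and SOX30 (class H) had none either.

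Among the FOX genes, 12 that are broadly expressed by general knowledge (FOXJ2, FOXJ3, FOXK1, FOXK2, FOXM1, FOXN2, FOXN3, FOXO1, FOXO3, FOXO4, FOXP1 and FOXP4) all had a TSS peak in both libraries, with 16 of 18 control TSS peaks overlapping an MGO peak. Of the other 33 FOX genes, 15 had a TSS peak in both, 4 in control only and 14 in neither, and 16 of their 21 control TSS peaks overlapped an MGO peak. The 2 shares, 88.9% (67.2 to 96.9%) and 76.2% (54.9 to 89.4%), have intervals that overlap. Over all protein-coding genes 56.4% had a TSS peak in both libraries, 6.92% in control only and 35.2% in neither. Of their control TSS peaks 85.6% overlapped an MGO peak. The number of transcript starts, at any of which a peak counted, was not matched between the 2 groups.

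FOXK2, a factor tied to nutrient signalling, had the strongest FOX TSS peak. It lay at an inner transcript start, chr17:82586215-82586509, was 295 bp wide, and had a −log10 p of 15.7 in control and 24.0 in MGO, with fold enrichments of 4.99 and 5.60. The peak at the outer FOXK2 start, the promoter printed above, behaved otherwise. It had a −log10 p of 7.93 in control and 6.19 in MGO, and it was 461 bp wide in control and 1187 bp in MGO. FOXK1 showed the same pairing of values, with a −log10 p of 6.30 in control and 4.68 in MGO and widths of 369 and 1690 bp. FOXK1 thus had the largest width ratio of the FOX and SOX pairs of TSS peaks, 4.58.

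FOXN2 had a −log10 p of 14.8 in control and 16.2 in MGO. FOXJ2 had 11.2 and 8.46, FOXJ3 10.6 and 10.3, and FOXM1, the cell division factor, 9.71 and 6.53. FOXP2 had 13.9 in control and 11.5 in MGO at its outer start. These 5 genes and FOXK2, SOX5 and SOX6 were the 8 with the strongest control TSS peaks, and the −log10 p was higher in MGO at FOXK2 and FOXN2 only.

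The FOXO genes, the targets of AKT signalling, all had a TSS peak in both libraries. FOXO1 had a −log10 p of 7.17 in control and 4.80 in MGO, FOXO3 6.47 and 4.82, FOXO4 8.81 and 6.17, and FOXO6 9.08 and 9.11. The FOXO1 and FOXO3 peaks were wide, 2466 and 3198 bp in control and 2758 and 3524 bp in MGO. The wider MGO peaks had the lower −log10 p, a value not adjusted for width. Of 10 known regulators of FOXO proteins, 8 had a TSS peak in both libraries, USP7 in control only and AKT1 in neither, where 56.4% of all protein-coding genes had one in both. The list as first written also held MST1, a growth factor gene that shares its name with the kinase encoded by STK4. It was left out after its values were seen, and with it 9 of 11 had a peak in both.

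Of the tissue-specific FOX genes, FOXA1, a pioneer factor of endoderm and breast, had a −log10 p of 8.74 in control and 7.66 in MGO, and FOXA3 5.07 and 7.36. FOXA2 had no TSS peak. FOXC1 and FOXC2, factors of eye and vessel development, had 6.90 and 6.34 in control and 5.21 and 5.32 in MGO. FOXD1, of the kidney stroma, had 5.72 and 5.48, and FOXF1, of lung and gut mesenchyme, 5.95 and 4.99. Apart from FOXA3, each of these had the lower −log10 p in MGO.

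The remaining FOX genes with a TSS peak in both libraries included FOXB2, FOXD2, FOXD3, FOXE1, FOXI3, FOXN3, FOXP4 and FOXQ1, with a strongest −log10 p between 4.87 and 9.31 in control and between 4.60 and 10.5 in MGO. No TSS peak in either library was found at FOXA2, FOXB1, FOXD4, FOXE3, FOXH1, FOXI1, FOXI2, FOXL2, FOXL3, FOXN1, FOXP3, FOXR1, FOXR2 and FOXS1. FOXB1, a hypothalamic factor, was the one among all 22 genes without a TSS peak that had weaker TSS peaks, with a −log10 p of 3.80 in control and 3.62 in MGO. FOXD4 has near-identical copies, and 5 of these, the FOXD4L genes, had no TSS peak either. The authors removed reads that map to several places, so the lack of a peak at FOXD4 and its copies cannot be read as closed chromatin.

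Over the 37 genes with a TSS peak in both libraries, the strongest −log10 p was higher in MGO at 10 (27.0%), as at 21.1% of all such genes. Ranked within each library, 19 of the 37 stood higher in MGO and 18 lower. A move of at least 30 percentile points was seen at 3 genes (8.11%), where 12.2% of all genes with both moved as far: SOX21 from 38.8 to 76.6, FOXA3 from 7.58 to 41.5, and SOX13 from 39.7 to 3.11. Large moves were thus not more frequent among these genes than among all genes.

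At the median, the TSS peaks of FOX and SOX genes were wider than those of other genes, with lower fold enrichment and −log10 p. Peaks were not matched for width, and whether the lower values go beyond the greater width was not tested. Their median width was 1268 bp in control, against 1106 bp for other protein-coding genes, and their median fold enrichment 3.07 against 3.63, with a median −log10 p of 7.17 against 9.09. Peaks of 2 kb or more made up 13 of 51 in control (25.5%), against 5.94% of those of other genes, a difference of 19.6 points with a Newcombe interval of 9.60 to 32.9. In MGO they were 12 of 45 (26.7%) against 4.17%, a difference of 22.5 points (11.8 to 36.9). The wide control peaks included those at FOXF2, FOXN3, FOXO1, FOXO3, FOXP1, FOXP2, FOXQ1, SOX4, SOX5, SOX6, SOX12 and SOX21. The widest was at an inner start of SOX6, 3533 bp in control and 2763 bp in MGO. HOX genes, another family of developmental regulators, had TSS peaks with still lower values in control, with a median fold enrichment of 2.80 and a median −log10 p of 6.06. Of their control TSS peaks 2 of 26 were 2 kb or wider (7.69%), and the FOX and SOX share was 17.8 points higher, with an interval of −1.42 to 32.3 that includes 0.

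Of the 44 control TSS peaks paired with an MGO peak, 26 were narrower in MGO (59.1%), with a median MGO to control width ratio of 0.963. For other genes 68.5% were narrower and the median ratio was 0.903. In all, TSS peaks of FOX and SOX genes covered 74.0 kb in control and 67.0 kb in MGO, a ratio of 0.906, where the ratio over all protein-coding genes was 0.824. The spans range from FOXN3, whose outer TSS peak was 1426 bp in control and 374 bp in MGO, to FOXK1 with its wider MGO peak.

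The starts were also rich in CpG. In the 1001 bp centred on the canonical TSS the FOX and SOX genes had a median of 89.5 CpG, and all protein-coding genes 66.0. The 22 genes without a TSS peak had a median of 63.0, where all genes without one had 22 and the 13 HOX genes without one 67.0. SOX1 and SOX18 each had 118 CpG, SOX11 had 108 and FOXL3 had 103, all with no TSS peak in either library. In the other direction, SOX6 had 3 CpG, FOXP2 7, SOX5 16 and SOX4 33 around the canonical TSS, and all 4 had TSS peaks in both libraries, at that or another start. Their strongest control TSS peaks held 50.2 CpG per kb at SOX6, 77.7 at FOXP2, 22.7 at SOX5 and 82.2 at SOX4. The other control TSS peaks held 65.7 at SOX6, 69.3 at SOX5, and 6.48 and 8.51 at FOXP2. So few CpG in the canonical window did not always mean few CpG in the peaks.

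Among starts with 50 CpG or more, 37 of 51 FOX and SOX genes had a control TSS peak (72.5%), against 83.9% of other genes, a difference of −11.3 points with an interval of −24.8 to −0.946. In MGO it was 66.7% against 78.2%, a difference of −11.5 points (−25.2 to −0.135). Both intervals just leave out 0. Of 32 HOX genes with such starts, 20 had a control TSS peak (62.5%) and 17 an MGO one (53.1%). The FOX and SOX shares were 10.0 points (−9.81 to 30.2) and 13.5 points (−7.53 to 33.7) above these, so a difference from the HOX genes was not detectable. The CpG minimum was set with earlier results of these data known, and no other minimum was tried. A TSS peak counted at any transcript start of a gene, while CpG was counted at the canonical start only. The number of starts per gene, 1 at SOX1 and 71 at FOXP1, was not matched in these comparisons. They were not repeated with 1 start per gene.

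**Figure D3:**
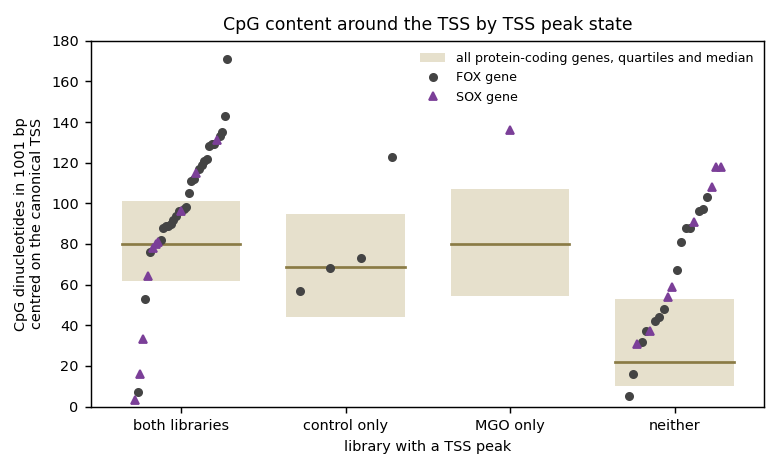
CpG dinucleotides in the 1001 bp centred on the canonical TSS (vertical axis), for FOX genes (circles) and SOX genes (triangles) by the library in which they had a TSS peak; boxes span the quartiles of all protein-coding genes in that state and lines mark their medians. Among genes with no TSS peak the FOX and SOX genes lie mostly above the median of 22 of all such genes, up to 118 at SOX1 and SOX18.

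Away from their own starts, the FOX and SOX genes had 104 other control peaks within 50 kb, of which 60 overlapped an MGO peak (57.7%, interval 48.1 to 66.7%). The share over all protein-coding genes was 59.5%, and the difference from other genes was −1.80 points (−11.4 to 7.29). In MGO there were 66 such peaks, of which 60 overlapped a control peak (90.9%) and 6 did not. Over all genes 10.5% of such MGO peaks overlapped no control peak. Covered sequence was 92.7 kb in control and 55.6 kb in MGO, a ratio of 0.60, with 0.661 over all protein-coding genes. At 30 genes there were more such peaks in control (46.9%), at 32 as many, and at FOXL3 and SOX11 more in MGO (3.12%), where over all protein-coding genes 35.3% had more in control and 5.13% more in MGO. Near TSSs the peaks of these genes thus overlapped between libraries more often than away from them, as over all genes.

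**Figure D4:**
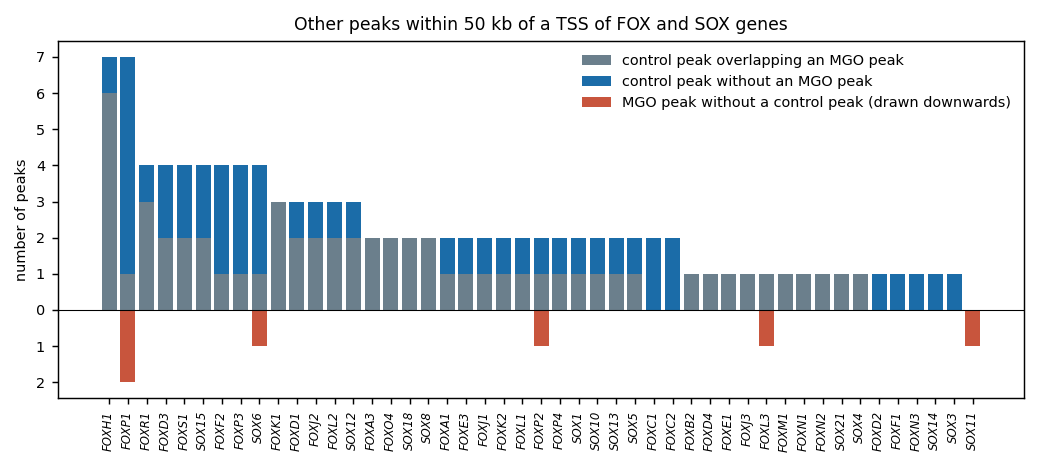
Number of other peaks within 50 kb of FOX and SOX genes that had any (1 gene is not shown), with control peaks overlapping an MGO peak in grey, control peaks without an MGO peak in blue, and MGO peaks without a control peak in red drawn downwards. FOXH1 and FOXP1 both had 7 control peaks, of which 6 at FOXH1 and 1 at FOXP1 overlapped an MGO peak.

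Of the 104 peaks, 56 lay at the TSS of another gene, and 41 of these overlapped an MGO peak (73.2%), against 82.6% for other genes, a difference of −9.39 points (−22.2 to 0.479). The other 48 lay at no protein-coding or lncRNA TSS, and 19 of them overlapped an MGO peak, 39.6% with an interval of 27.0 to 53.7%. The share over all protein-coding genes was 25.1%, and the difference from other genes was 14.6 points (2.02 to 28.8). With the peaks of other genes weighted to the same −log10 p the difference was 9.52 points, and weighted to the same GC content 9.23. Against all deposited MGO peaks it was 11.8 points, with an interval of −1.91 to 25.4. All 3 were chosen after the data were seen. By place, 7 of 27 peaks in introns overlapped an MGO peak (25.9%), 9 of 17 between genes (52.9%) and 3 of 4 in exons (75.0%). Over all protein-coding genes 20.4%, 30.3% and 31.5% did.

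The genes differed widely in these peaks. FOXP1, spread over a long locus, had 7 other control peaks, 6 of them in introns, and only the peak beyond its end, at chr3:70916893-70917537, overlapped an MGO peak. The intronic control peaks had a −log10 p between 4.40 and 6.68, and 1 of the 6 met a weaker MGO peak. FOXP1 also had 2 MGO peaks in introns without a control peak, with a −log10 p of 5.01 and 4.43. FOXH1, the SMAD partner in Nodal signalling, had 7 control peaks in a gene-dense region, all at the TSSs of other genes, and 6 of them overlapped an MGO peak.

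FOXF2, which had no MGO TSS peak, had 4 other control peaks, all between genes, and 1 of them overlapped an MGO peak. That peak, chr6:1381524-1382358, had a −log10 p of 7.07 in control and 5.61 in MGO, while the other 3, with values from 4.25 to 5.38, met no deposited MGO peak. FOXP3, the factor of regulatory T cells, also had 1 of 4 that overlapped an MGO peak, at the TSS of another gene. SOX6 likewise had 1 of 4, again at the TSS of another gene, and its 3 peaks in introns met no deposited MGO peak. FOXC1 and FOXC2 had 2 each, and none overlapped an MGO peak, although 1 at FOXC1 and both at FOXC2 met a weaker one.

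At the other end, 3 of 3 overlapped an MGO peak at FOXK1, 3 of 4 at FOXR1, and 2 of 3 at FOXD1. The FOXD1 peak at chr5:73436938-73437934, between genes, had a −log10 p of 8.35 in control and 11.4 in MGO. FOXD3, the neural crest factor, had 2 of 4 that did, both at the TSSs of other genes and strong, with a −log10 p of 19.8 and 15.7 in control and 16.8 and 15.2 in MGO. FOXL2, the ovarian factor, had no TSS peak but the strongest other control peak of those at no TSS, chr3:138915488-138916414, with a −log10 p of 26.2 and a fold enrichment of 5.91 in control. In MGO this peak had a −log10 p of 9.49 and a fold enrichment of 3.74. FOXP2 had a peak in an exon, chr7:114653375-114654104, with a −log10 p of 17.4 in control and 5.12 in MGO. At SOX8 and FOXD1 the distal peak had the higher value in MGO, and at FOXL2 and FOXP2 in control.

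Some peaks counted for more than 1 gene. On chromosome 16, where FOXF1, FOXC2 and FOXL1 lie together, 1 other control peak was shared by all 3, and the TSS peaks of FOXC2 and FOXL1 each counted as another peak of the neighbour. FOXD2 and FOXE3 shared 1 other control peak. In all, 3 control TSS peaks of a FOX or SOX gene were other peaks of another.

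The HOX genes were set beside them for overlap too. Of 26 control TSS peaks at 39 HOX genes, 18 overlapped an MGO peak (69.2%, interval 50 to 83.5%), and the FOX and SOX share was 17.0 points higher, with an interval of −1.60 to 37.5 that includes 0. Of the HOX genes 6 had a TSS peak in control only (15.4%) and 1 in MGO only (2.56%), where 6.92% and 1.43% of all protein-coding genes did. Of 5 HMG-box relatives of the SOX genes, 4 had a TSS peak in both libraries and 1 in neither. Of 8 genes of POU, PAX and NANOG factors that act with SOX proteins, 5 had one in both and POU3F4, POU5F1 and NANOG in neither. As a check of the cells, 6 of 7 genes listed for 293T cells had a TSS peak in both libraries, where 56.4% of all protein-coding genes did. They included KRT8, KRT18 and VIM, which are general epithelial and mesenchymal genes and not particular to kidney, and LHX1 had none. None of 8 marker genes of leukocytes, hepatocytes, muscle and endothelium had one in both, although 2 of them had one in control.

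**Figure D5:**
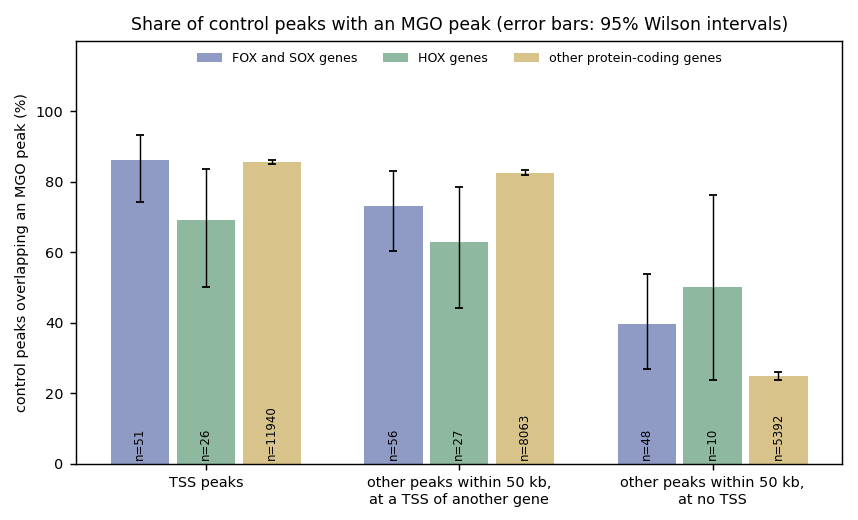
Share of control peaks that overlapped an MGO peak, in percent, at TSSs, at TSSs of other genes within 50 kb, and at no TSS within 50 kb, for FOX and SOX genes (blue-grey), HOX genes (green) and other protein-coding genes (sand), with 95% Wilson intervals and the number of peaks in each bar. At TSSs the FOX and SOX genes (86.3%) and other genes (85.6%) were about level, and at no TSS the FOX and SOX share was 39.6% against 24.9%.

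Finally, the letters that FOX and SOX proteins bind were counted in peaks at no TSS, on both strands. The forkhead letters were TGTTTAC and the SOX letters AACAAAG and AACAATG, each set beside the same letters written backwards. Over the whole control list, control peaks without an MGO peak held 0.265 forkhead matches per kb (backwards 0.228), and control peaks with one 0.225 (backwards 0.156). The SOX letters stood at 0.529 per kb (backwards 0.369) in control peaks without an MGO peak and at 0.393 (backwards 0.264) in those with one. Counted by peak the order was the other way. Forkhead letters were in 16.1% of control peaks without an MGO peak (backwards 13.4%) and 19.4% of those with one (backwards 11.7%). SOX letters were in 28.9% (backwards 20.3%) and 29.6% (backwards 19.3%). The 7437 peaks without an MGO peak covered 4902 kb and the 2780 with one 2557 kb, so the latter were longer on average. A longer peak has more room for a match. Base composition differed between these sets too, with a median GC content of 44.5% in control peaks without an MGO peak and 49.3% in those with one. Near FOX and SOX genes there were 6 forkhead matches in 19 overlapping control peaks (backwards 3) and 4 in 29 peaks without an MGO peak (backwards 4). The SOX letters had 5 matches (backwards 2) in the overlapping peaks and 6 (backwards 11) in those without an MGO peak. These matches were too few to compare. Of the 44 FOX and SOX promoters in the RefSeq table, 2 held the forkhead letters (4.55%), FOXO4 and SOX12, where 2.63% of all 15345 promoters did. The SOX letters occurred in 3 (6.82%), FOXA1, FOXD3 and SOX5, where 6.26% of all did. Written backwards, the forkhead letters occurred in 1 FOX or SOX promoter (2.27%) and the SOX letters in 0. Of all promoters 2.53% and 5.37% held these. A match is a description of letters and not a bound site.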

How the data were processed

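ATAC-seq of 293T cells was analysed from 1 control library and 1 MGO library. Per the labels and the methods, the authors aligned reads with BWA 0.7.15 (GRCh38.p12), used Picard to drop reads that were mitochondrial or mapped to several places (version 2.16.0 in the labels, another in the methods), subsampled reads to equal depth and called broad peaks in each sample with MACS2, leaving out blacklisted regions of low mappability. The MACS2 version is not given in the sources used here. The methods also name consensus peaks, and the peak names of both lists carry the number 2, so further libraries may exist, which were not analysed here. For each peak the authors deposited a fold enrichment, a ratio over local background. The authors also deposited the −log10 of the p-value and of the q-value. A score was not used. The methods state an approximate sequencing depth per sample. Read counts are not part of the lists, so the exact depth behind each list is unknown here and gives no error.

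Peaks were kept from a −log10 q of 2, the q-value of 0.01 in the methods, leaving 23458 of 36142 control and 15738 of 22884 MGO peaks. TSSs were all transcript starts of a gene in GENCODE 44. The reference matched the files' build in that 0 peaks ran past the ends of the 24 chromosomes. Peaks overlapped from 1 bp. Shares have 95% Wilson intervals and differences 95% Newcombe intervals. No test was made. Promoter sequences are those of RefSeq (GRCh38.p14), which matched 44 of the 64 genes. Scripts ran in Python 3.11.15 with numpy 2.4.6 and pandas 2.3.3, and were tested on simulated peaks.

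The genes, lists and settings were chosen with earlier results of these data known. Genes were named by rule: every gene with TSS peaks in 1 list, the 8 strongest control TSS peaks, the 6 genes with most other control peaks and the 4 with the highest and lowest overlap, and a list of 22 well-known regulators. Values of 1 of these genes are not reported here, though it is part of the counts. Alternatives covered the peak threshold, peak number, overlap, windows, TSS choice, chromosomes, the FOXD4L genes and weighting by peak strength.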

Additional observations from a re-analysis of the deposited data

How the results depend on the processing

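No paired analysis was possible because 1 library of each condition was analysed. Of 99 values recomputed, 64 stayed within 1.5 times the main count or inside the 95% interval of the main share or difference, 24 moved beyond that and 11 differences changed sign. The interval of the TSS difference is wide: inside it, 0.680 points became 6.81 with all deposited peaks, 7.16 weighted by −log10 p and 3.24 against all deposited peaks of the other library. With all deposited peaks, 1 gene had a TSS peak in control only and 0 in MGO only, and 94.4% of control TSS peaks overlapped. From a −log10 q of 5, 19 genes had a control TSS peak and 12 an MGO one, with 7 in control only and 0 in MGO only; 61.9% of TSS and 41.0% of other control peaks overlapped, −5.84 and −14.5 points from other genes. With a fold enrichment of at least 4, the counts were 6 and 3, with 0 in MGO only; the shares were 50% and 35.3%, 9.90 and 3.47 points from other genes. With equal numbers of peaks, 1 gene was in control only and 5 in MGO only, 81.2% of other peaks overlapped, and the differences were −0.00339 and 3.23 points. Counted against every deposited peak of the other library, 1 gene was in control only and 0 in MGO only, the shares were 96.1% and 70.2%, and the difference for other peaks was 0.159 points. With at least 50% of both peaks covered, the TSS difference was −3.23 points. Without peaks at any TSS, 39.6% of other peaks overlapped, 14.6 points above other genes. Weighting by −log10 p gave 2.69 points for other peaks; without peaks at any TSS, 9.52 points by −log10 p, 9.23 by GC content and 11.8 against all deposited peaks, the last 3 chosen after seeing the data. The causes were not tested. The intervals of both main differences include 0.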
